A study of Mus musculus with 6 samples.

Results

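The EGF family ligands and ErbB receptors were followed in whole corneas of mice with dry eye. They were the 10 genes Areg, Ereg, Epgn, Hbegf, Btc, Tgfa, Egf, Egfr, Erbb2 and Erbb3, each taken from the row of the gene expression table that bears its symbol, 10 of 17794 genes in all. Dry eye was induced experimentally with benzalkonium chloride, a preservative detergent that injures the ocular surface, and the mice then received luteolin, a plant flavone, or vehicle for 10 days. The whole cornea was taken for RNA sequencing, with 3 luteolin libraries and 3 vehicle libraries. Both groups carried the injury, uninjured corneas were not analysed here, and the labels give neither strain, sex nor age and do not say whether a library is 1 animal or a pool. The labels' only stated aim is to compare the corneal transcriptomes of both treatments.

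EGF-like ligands are made as membrane-anchored precursors and are released by metalloproteinases of the ADAM family. Amphiregulin (Areg), epigen (Epgn), transforming growth factor alpha (Tgfa) and EGF bind the receptor EGFR, while HB-EGF (Hbegf), betacellulin (Btc) and epiregulin (Ereg) bind EGFR and also ErbB4. ErbB2 has no known ligand and serves as a dimer partner, and ErbB3, which binds neuregulins, signals mainly through its partner because its own kinase is weak. In the cornea, EGFR signalling is known for driving the migration and division of epithelial cells that close a wound.

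Epgn, Ereg, Areg and Btc are neighbours on mouse chromosome 5, with no other protein-coding gene between them in RefSeq, yet their transcripts differed in direction between the groups. The 150 bases before the annotated start of transcription are shown for 3 of these 4 genes and for the receptors Egfr and Erbb2, as examples of members that fell (Areg, Epgn) and of members that rose (Btc, Egfr, Erbb2). They come from RefSeq on GRCm38.p6, a later build than the mm9 named for these data, and run 5′ to 3′ on the strand of the gene. Capitals mark matches, on either strand, to any of 4 motifs. These were the cyclic AMP response element or CRE, spelled TGACGTCA, the site of the AP-1 factors, spelled TGANTCA, the core promoter element TATAAA, called TATA here, and the GC box, which was searched as the letters GGGCGG.
Areg, chr5:91139449-91139598, plus strand: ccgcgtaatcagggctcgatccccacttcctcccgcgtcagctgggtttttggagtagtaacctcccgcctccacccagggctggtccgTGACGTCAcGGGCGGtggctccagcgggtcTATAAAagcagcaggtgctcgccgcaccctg
Epgn, chr5:91027367-91027516, plus strand: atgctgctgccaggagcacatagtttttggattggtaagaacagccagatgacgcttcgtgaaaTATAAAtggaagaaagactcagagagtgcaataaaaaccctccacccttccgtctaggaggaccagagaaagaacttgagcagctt
Btc, chr5:91402995-91403144, minus strand: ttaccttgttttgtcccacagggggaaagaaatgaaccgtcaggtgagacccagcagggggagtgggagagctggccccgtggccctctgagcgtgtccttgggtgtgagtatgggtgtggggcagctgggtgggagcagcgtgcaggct
Egfr, chr11:16752053-16752202, plus strand: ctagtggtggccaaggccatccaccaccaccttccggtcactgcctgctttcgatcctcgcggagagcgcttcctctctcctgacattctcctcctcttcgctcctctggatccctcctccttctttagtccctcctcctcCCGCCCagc
Erbb2, chr11:98412334-98412483, plus strand: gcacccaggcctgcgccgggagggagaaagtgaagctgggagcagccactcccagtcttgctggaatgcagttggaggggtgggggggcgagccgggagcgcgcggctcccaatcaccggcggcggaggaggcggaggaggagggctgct
RefSeq's table held a promoter for 7 of the 10 members, and Ereg, Hbegf and Erbb3 are named only. In the 250 bases before the start, Areg had a CRE match 61 bases, a GC box match 52 bases and a TATA match 31 bases before the start, counted from the first base of each match on the strand of the gene. Epgn had a TATA match 86 bases before the start, Egfr a GC box match 9 bases before it, and Tgfa 2 GC box matches, 126 and 15 bases before it. Btc, Egf (at both of its 2 starts) and Erbb2 had no match to these letters in this window, and no AP-1 match was found in any of the 7 genes. Of all 32851 promoter windows of the same length, 1.55% held the CRE letters, 6.75% the AP-1 letters, 12.4% the TATA letters and 32.7% the GC box letters. None of these matches overlapped another, and a match is a description of the sequence, not a binding site.

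Levels between genes are given in TPM, the deposited measure of transcript abundance scaled by gene length and to a common library total. Changes are log2 fold changes, luteolin minus vehicle, from edgeR's quasi-likelihood test on the estimated counts of all 13838 genes with enough reads, with p-values adjusted over all of them by Benjamini-Hochberg and a threshold of 0.05. Library totals ran from 16084855 to 16469699 estimated counts, and a member had between 55 and 5809 counts in a library, all of them whole numbers. Replicate libraries varied beyond counting noise, with a chi-square over its degrees of freedom of 6.30 to 30.3. Since nothing says that they came from separate animals, the p-values speak only of the spread among the 6 libraries, which may be technical. The tissue carried its defining markers: 12 corneal epithelial genes, the corneal keratin Krt12 among them, summed to 69780 to 72210 TPM in luteolin libraries and 40766 to 47347 TPM in vehicle libraries. In bulk tissue, fewer cells of a type and less RNA per cell cannot be told apart.

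All 10 members had enough reads to test. With luteolin, 5 rose (Btc, Egf, Egfr, Erbb2 and Erbb3), 3 fell (Areg, Epgn and Tgfa) and 2 did not pass (Ereg and Hbegf). For comparison, 58.9% of all tested genes passed, 28.5% higher and 30.4% lower, and the count of members is to be read against these shares. The median log2 fold change was 0.65 over the 10 members and -0.02 over all tested genes. The groups did not overlap in TPM for 9 members, against 67.4% of all tested genes in CPM, and Epgn was the exception. All 10 members kept their sign with other scaling factors, with no filter, with DESeq2, with replicate numbers as a block and with any 1 library left out. Scaling by library size alone moved the median of all tested genes to -0.13, and the share of called genes that were higher to 36.4%, from 48.4% with TMM factors. It left the members at 5 higher and 3 lower.

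**Figure D1:**
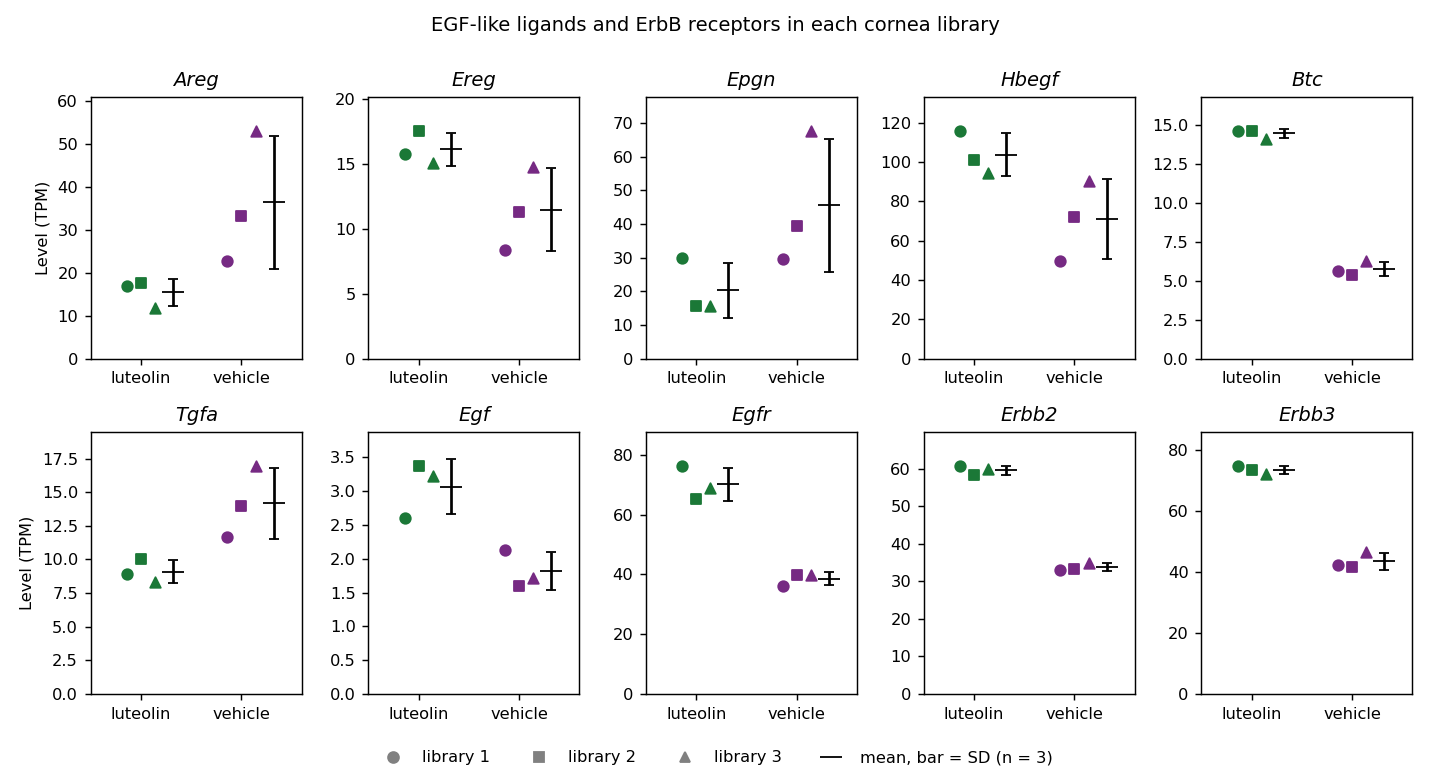
Level in TPM (vertical axes, each from 0) of the 7 ligands and 3 receptors in each luteolin and vehicle library, 1 symbol per library, with the mean and SD of the 3 libraries beside them. The receptors and Btc sit in tight, separate groups, higher with luteolin, while Areg, Epgn, Hbegf, Ereg and Tgfa spread widely among the vehicle libraries, and luteolin 1 overlaps the vehicle range for Epgn alone.

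Among the ligands that fell, Areg (gene ID 11839), whose product amphiregulin is a heparin-binding EGFR ligand, stood at 16.9, 17.5 and 11.8 TPM in luteolin 1, 2 and 3 and at 22.7, 33.3 and 53.0 TPM in vehicle 1, 2 and 3. Every luteolin library was below every vehicle library, and vehicle 3 was far above the other two. The log2 fold change was -1.24 (SE 0.321, edgeR adjusted p = 0.0131), a 2.35-fold decrease. It was -0.85 without vehicle 3 and -1.50 without vehicle 1, and it passed without any 1 library.

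Epgn (gene ID 71920) encodes epigen, an EGFR ligand of low affinity. It stood at 29.7, 15.5 and 15.7 TPM in luteolin 1, 2 and 3 and at 29.5, 39.4 and 67.7 TPM in vehicle 1, 2 and 3. Luteolin 1 was level with vehicle 1, so the groups overlapped, and the other 2 luteolin libraries lay below all vehicle libraries. The log2 fold change was -1.17 (SE 0.368, edgeR adjusted p = 0.0274), 2.25-fold lower. This call rested on single libraries, since it ended without luteolin 2 (-1.02, edgeR adjusted p = 0.0877), without luteolin 3 (-1.02, edgeR adjusted p = 0.0870) and without vehicle 3 (-0.76, edgeR adjusted p = 0.0650), over a range of 0.0157 to 0.0877 across all alternatives.

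Tgfa (gene ID 21802), the gene of transforming growth factor alpha, an autocrine EGFR ligand of epithelia, stood at 8.92, 10.0 and 8.31 TPM in luteolin 1, 2 and 3, against 11.7, 14.0 and 16.9 TPM in vehicle 1, 2 and 3. The groups did not overlap. It fell by 0.65 on the log2 scale (SE 0.149, edgeR adjusted p = 0.00796), or 1.57-fold, and passed under every alternative run, between -0.78 and -0.51.

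Of the ligands that rose, Btc (gene ID 12223), the betacellulin gene, rose by the most of the 10 members. It stood at 14.6, 14.6 and 14.1 TPM in luteolin 1, 2 and 3 and at 5.65, 5.36 and 6.24 TPM in vehicle 1, 2 and 3. The libraries of each group were close together and the groups were far apart, 1.33 on the log2 scale (SE 0.0961, edgeR adjusted p = 8.44e-05), 2.51-fold. Egf (gene ID 13645), which encodes the EGF precursor, was the least abundant member. It stood at 2.60, 3.37 and 3.23 TPM in luteolin 1, 2 and 3 and at 2.13, 1.59 and 1.72 TPM in vehicle 1, 2 and 3. The groups did not overlap, and Egf was 1.72-fold higher (log2 fold change 0.78, SE 0.196, edgeR adjusted p = 0.0115), a call that ended without luteolin 2 (0.69, edgeR adjusted p = 0.0517, over all alternatives 0.00678 to 0.0517).

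Hbegf and Ereg did not pass. Hbegf (gene ID 15200), the gene of heparin-binding EGF-like growth factor, was the most abundant member, at 116, 101 and 94.5 TPM in luteolin 1, 2 and 3 and 49.9, 71.9 and 90.6 TPM in vehicle 1, 2 and 3. The groups did not overlap, but vehicle 3 lay just under luteolin 3. The log2 fold change was 0.55 (SE 0.206, 95% interval 0.06 to 1.03, edgeR adjusted p = 0.0534). Ereg (gene ID 13874), the epiregulin gene, stood at 15.7, 17.5 and 15.04 TPM in luteolin 1, 2 and 3, against 8.35, 11.3 and 14.8 TPM in vehicle 1, 2 and 3, a difference of 0.48 on the log2 scale (SE 0.198, 95% interval 0.02 to 0.95, edgeR adjusted p = 0.0697). Here too vehicle 3 lay just under the lowest luteolin library. Without vehicle 3 both passed, Hbegf at 0.76 (edgeR adjusted p = 0.00769, over all alternatives 0.00769 to 0.147) and Ereg at 0.71 (edgeR adjusted p = 0.00642, over all alternatives 0.00642 to 0.179), and DESeq2 called both on all 6 libraries (adjusted p = 0.0122 for Hbegf and 0.0369 for Ereg). With no filter on low counts, Hbegf passed as well (0.55, edgeR adjusted p = 0.0468).

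**Figure D2:**
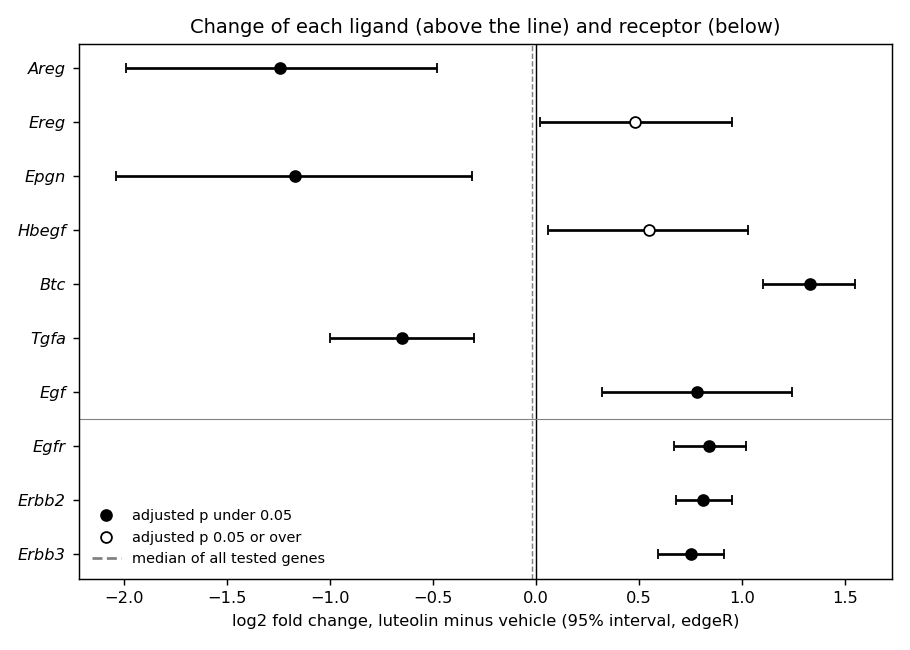
Log2 fold change of each member, luteolin minus vehicle (horizontal axis), with its 95% interval from edgeR; filled points passed at an adjusted p of 0.05, open points did not, and the dashed line is the median of all tested genes. The 3 receptors lie together between 0.75 and 0.84, while the ligands run from -1.24 for Areg to 1.33 for Btc.

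The ligands differed in how far the vehicle libraries lay apart. The coefficient of variation of TPM over the 3 vehicle libraries was 43.6% for Epgn, 42.4% for Areg, 28.8% for Hbegf, 28% for Ereg, 18.6% for Tgfa, 15.5% for Egf and 7.80% for Btc. Vehicle 3 had the highest level of 6 of the 7 ligands and vehicle 1 the lowest of 5 of them; Areg was 2.34-fold and Epgn 2.30-fold higher in vehicle 3 than in vehicle 1. The summed TPM of the neutrophil markers was also highest in vehicle 3, at 194, 146 and 333 TPM in vehicle 1, 2 and 3. S100a8 and S100a9 made up most of that sum, and the other tested neutrophil markers did not peak there. Csf3r stood at 11.77, 10.2 and 8.65 TPM and Cxcr2 at 3.52, 2.27 and 2.52 TPM in vehicle 1, 2 and 3. The sum of the macrophage and dendritic cell markers was highest in vehicle 2, at 360, 523 and 331 TPM in vehicle 1, 2 and 3. The part of either cell type in the spread of the ligands was not tested. In the luteolin group the coefficient of variation was 40.3% for Epgn and 20.2% for Areg and between 2.08% and 13.4% for the other 5 ligands.

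The receptors rose together and by similar amounts. Egfr (gene ID 13649), the shared receptor of these ligands, stood at 76.2, 65.4 and 68.8 TPM in luteolin 1, 2 and 3 and at 36.0, 39.9 and 39.8 TPM in vehicle 1, 2 and 3, 0.84 higher on the log2 scale (SE 0.0754, edgeR adjusted p = 0.000154). Erbb2 (gene ID 13866), the dimer partner, stood at 60.7, 58.2 and 59.8 TPM in luteolin 1, 2 and 3 and at 33.0, 33.3 and 35.0 TPM in vehicle 1, 2 and 3, 0.81 higher on the log2 scale (SE 0.0575, edgeR adjusted p = 7.69e-05). The luteolin libraries were far above the vehicle libraries for both.

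Erbb3 (gene ID 13867), the neuregulin receptor with a weak kinase, stood at 74.7, 73.3 and 72.1 TPM in luteolin 1, 2 and 3 and at 42.1, 41.7 and 46.6 TPM in vehicle 1, 2 and 3. Its log2 fold change was 0.75 (SE 0.0682, edgeR adjusted p = 0.000163), so that the receptors were 1.79-fold, 1.76-fold and 1.68-fold higher for Egfr, Erbb2 and Erbb3. All 3 passed under every alternative run, between 0.63 and 0.87. Erbb2 overlaps the gene Mien1 in RefSeq, and reads from an overlap cannot be told apart where strand was not used in counting.

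Markers of the corneal epithelium rose in the same libraries: 11 of 12 passed upward while Clu, at -0.05, did not pass. Their log2 fold changes ran from -0.05 for Clu to 0.87 for Krt12. Egfr, Erbb2, Erbb3, Egf, Ereg and Hbegf lay within that range, Btc above it and Tgfa, Epgn and Areg below it. The median of the 12 markers was 0.63 and none of them was at 0 counts. Set against that median, a comparison added after the data were seen, Egfr stood at 0.21, Erbb2 at 0.18, Erbb3 at 0.11, Egf at 0.14 and Btc at 0.69, Ereg at -0.15 and Hbegf at -0.09, and Tgfa at -1.28, Epgn at -1.81 and Areg at -1.87. Of the 12 macrophage and dendritic cell markers 11 fell and Itgam rose, and their sum was 119 to 140 TPM in luteolin libraries and 331 to 523 TPM in vehicle libraries. Itgam made up most of the sum in luteolin libraries, at 61.76 to 72.93 TPM, but not in vehicle libraries, at 42.65 to 53.11 TPM. The sum therefore understates the fall of the other 11. All 4 tested neutrophil markers fell, with sums of 3.96 to 14.8 TPM in luteolin libraries and 146 to 333 TPM in vehicle libraries. S100a8 had 0 counts in every luteolin library. So did Ly6g, but it had too few reads to test and stood at only 0.16 TPM in each vehicle library. The part of these cell types in the changes of the ligands and receptors was not tested. Of 6 Schwann cell markers, a cell type that also makes Erbb3, 3 fell and 1, Mbp, rose. All 3 tested T cell and innate lymphoid cell markers and 7 of 8 vessel markers fell as well, and 4 of 10 keratocyte markers fell while 1 rose. Of 5 tested markers of the conjunctiva, the neighbouring epithelium of the ocular surface, the keratin genes Krt4, Krt13 and Krt19 fell (-1.28, -0.78 and -0.66) and 2 did not pass; the list summed to 1919 to 2888 TPM in luteolin libraries and 4386 to 4542 TPM in vehicle libraries, without overlap. Of 5 tested mast cell markers 4 fell and Kit rose. The sum, 99.7 to 108 TPM in luteolin libraries and 55.7 to 67.8 TPM in vehicle libraries, was higher with luteolin. Kit made up most of it in every library, so the sum followed Kit and not the 4 that fell. Kit stood at 97.97, 97.05 and 93.95 TPM in luteolin 1, 2 and 3 and at 32.82, 41.45 and 34.15 TPM in vehicle 1, 2 and 3. Of 6 corneal endothelium markers 2 fell, and of 3 tested epidermis markers 1 fell. None of 6 tested skeletal muscle markers passed, and their list varied widely within both groups. It summed to 55.5, 54.9 and 134 TPM in luteolin 1, 2 and 3 and to 144, 227 and 50.6 TPM in vehicle 1, 2 and 3. The part of these cells too was not tested.

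The summed level of the ligands overlapped between the groups, while the shares of 6 of the 7 ligands in it did not, Egf being the exception. The 7 ligands summed to 204.4, 179.4 and 162.7 TPM in luteolin 1, 2 and 3 and to 129.8, 176.8 and 250.9 TPM in vehicle 1, 2 and 3. Hbegf held 57.0% ± 0.965 of this sum with luteolin and 38.4% ± 2.30 with vehicle (SD, n = 3 each). Areg and Epgn together held 19.4% ± 3.06 with luteolin and 43.1% ± 4.34 with vehicle (SD, n = 3 each), and Btc held 8.0% ± 0.770 with luteolin and 3.29% ± 0.959 with vehicle (SD, n = 3 each). In no library of 1 group did these 3 shares reach the range of the other group.

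The proportion of Hbegf to Areg was higher in every luteolin library than in any vehicle library. The ratio of their TPM was 6.88, 5.75 and 7.99 in luteolin 1, 2 and 3 and 2.2, 2.16 and 1.71 in vehicle 1, 2 and 3. The ratio of Ereg to Hbegf differed little between the groups, at 0.156 ± 0.0193 with luteolin and 0.162 ± 0.00545 with vehicle (SD, n = 3 each), less than the spread among the luteolin libraries. So did that of Epgn to Areg, at 1.32 ± 0.442 with luteolin and 1.25 ± 0.0611 with vehicle (SD, n = 3 each).

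The 3 receptors summed to 211.6, 196.9 and 200.7 TPM in luteolin 1, 2 and 3, against 111.1, 114.9 and 121.4 TPM in vehicle 1, 2 and 3, with no overlap. Their proportions stayed within a narrow band: Egfr made up 34.5% ± 1.43 of the sum with luteolin and 33.3% ± 1.24 with vehicle, Erbb2 29.4% ± 0.600 with luteolin and 29.2% ± 0.440 with vehicle, and Erbb3 36.1% ± 0.990 with luteolin and 37.5% ± 1.09 with vehicle (SD, n = 3 each). These are shares of a sum over members, described without a test.

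**Figure D3:**
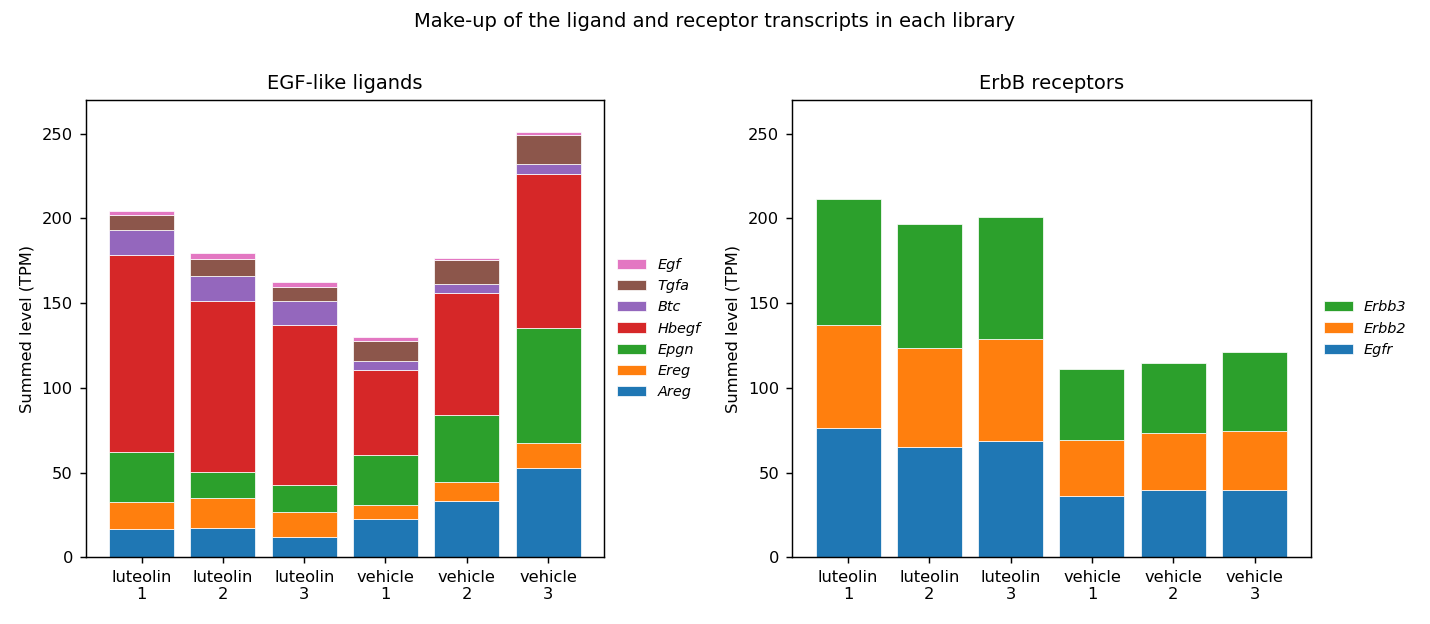
Stacked TPM (vertical axes) of the 7 ligands, left, and the 3 receptors, right, in each luteolin and vehicle library. The ligand stacks reach 162.7 to 204.4 TPM with luteolin and 129.8 to 250.9 TPM with vehicle but differ in make-up, with more Hbegf and less Areg and Epgn in the luteolin stacks, while the receptor stacks differ in height and keep their proportions.

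In order of level, Hbegf led the luteolin libraries (104 ± 11 TPM, SD, n = 3), followed by Erbb3 and Egfr, whose ranges overlapped, then Erbb2. Next came Epgn, Ereg, Areg and Btc, each overlapping its neighbour, then Tgfa, then Egf. In the vehicle libraries the ligands Hbegf (70.8 ± 20.4 TPM, SD, n = 3) and Epgn (45.5 ± 19.8 TPM, SD, n = 3) ranked first and their ranges overlapped each other, as did those of Epgn and Erbb3. Egfr, Areg and Erbb2 followed. The range of Areg overlapped those of Egfr and Erbb2, which did not overlap each other. Tgfa and Ereg came next with overlapping ranges, then Btc and Egf.

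By the rule for likeness, the genes whose log2 CPM over the 6 libraries ran closest to Btc were Dhx32, Ccdc117 and Itga2b (Pearson coefficients 0.9998, 0.9995 and 0.9992), and those closest to Erbb2 were Rapgefl1, Bicdl2 and Kctd15 (0.9999, 0.9998 and 0.9994). The 6 points share the split between the groups, and 1679 of 10727 genes of at least 5 CPM had a Pearson coefficient above 0.95 with Btc and 1834 with Erbb2. The names are a description only.

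The other genes of ErbB signalling moved in both directions. Of 76 tested genes in 6 lists, 33 rose, 18 fell and 25 did not pass, so 67.1% passed against 58.9% of all tested genes. The counts of each list are to be read against 28.5% higher and 30.4% lower among all tested genes. Many of these changes were small, and scaling by library size alone or by the upper quartile gave 21 higher and 24 lower. Among the remaining receptor and its neuregulin ligands, 1 of 4 tested rose and 0 fell (median log2 fold change 0.61). Nrg2, a ligand of ErbB3 and ErbB4, rose to 8.90 ± 1.43 TPM with luteolin, against 5.11 ± 0.518 TPM with vehicle (SD, n = 3 each; log2 fold change 1.00, edgeR adjusted p = 0.000866). Erbb4 itself was low, at 0.167 ± 0.0379 TPM with luteolin and 0.07 ± 0.05 TPM with vehicle (SD, n = 3 each), and did not pass (1.10, edgeR adjusted p = 0.120, but 1.82 and 0.0206 without vehicle 2). Nrg1 did not pass either (0.18, and -0.02 without luteolin 1).

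Of 12 genes of ligand release 6 rose and 4 fell (median 0.05), while 4 rose and 6 fell with upper quartile factors or library sizes only. Rhbdl2, a rhomboid protease of the membrane, rose most, at 24.5 ± 3.50 TPM with luteolin and 6.78 ± 1.58 TPM with vehicle (SD, n = 3 each), a log2 fold change of 2.03 (edgeR adjusted p = 0.000124), and the metalloproteinase gene Adam15 rose by 0.74. Adam12, low in both groups, fell by 4.07 on the log2 scale, at 0.0633 ± 0.0153 TPM with luteolin and 1.10 ± 0.303 TPM with vehicle (SD, n = 3 each). Adam8 fell by 4.31 (edgeR adjusted p = 0.000149) from a higher level. It stood at 0.783 ± 0.446 TPM with luteolin and 15.6 ± 3.27 TPM with vehicle (SD, n = 3 each). Most neutrophil, macrophage and dendritic cell markers fell in the same libraries, and the part of these cells in both falls was not tested. The main sheddases of EGFR ligands, Adam17 and Adam10, were chosen after their values were seen and went in opposite directions. Adam17, which releases several of them, stood at 42.3 ± 1.77 TPM with luteolin and 33.7 ± 1.76 TPM with vehicle (SD, n = 3 each), 0.33 higher on the log2 scale (edgeR adjusted p = 0.00306). Adam10, which releases EGF and betacellulin, stood at 43.5 ± 1.39 TPM with luteolin and 52.4 ± 2.06 TPM with vehicle (SD, n = 3 each), and fell by 0.27 on the log2 scale (edgeR adjusted p = 0.00438).

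Among receptor inhibitors and genes of receptor turnover, 8 of 15 rose and 2 fell (median 0.21), and 4 rose with library sizes only or upper quartile factors. Lrig1, which promotes the loss of ErbB receptors from the cell surface, stood at 107 ± 6.33 TPM with luteolin and 64.0 ± 5.86 TPM with vehicle (SD, n = 3 each), a log2 fold change of 0.74 (edgeR adjusted p = 0.000409). Ptprk, a receptor phosphatase, rose by 1.00, and the endocytic adaptor gene Sh3kbp1 fell by 3.15 on the log2 scale. Sh3kbp1 stood at 0.753 ± 0.39 TPM with luteolin and 6.9 ± 1.55 TPM with vehicle (SD, n = 3 each). The part of neutrophils, macrophages and dendritic cells in its fall was not tested. Among adaptors and Ras-ERK kinases 7 of 16 rose and 4 fell (median 0.09), against 28.5% higher and 30.4% lower among all tested genes. With library sizes only or upper quartile factors, 5 rose and 5 fell. The kinase Braf rose by 0.61, the docking protein Gab1 by 0.53 and the exchange factor Sos2 by 0.49. Gab1 had counts with decimals in 4 libraries, so that its level is uncertain where reads were shared with similar genes. In the PI3K, AKT, PLC and STAT branch 8 of 13 rose and 2 fell (median 0.21), and 6 rose and 3 fell with library sizes only or upper quartile factors. The PI3K subunit genes Pik3r1 and Pik3cb rose by 0.62 and 0.49 and the kinase Pdpk1 by 0.46.

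Of 16 genes that EGFR and ERK signalling can induce, 6 fell, 3 rose and 7 did not pass (median -0.27), against 30.4% lower and 28.5% higher among all tested genes. Without luteolin 2, 3 fell and 3 rose. Etv4, an ETS transcription factor, stood at 2.58 ± 0.631 TPM with luteolin and 18.9 ± 2.29 TPM with vehicle (SD, n = 3 each), or -2.84 on the log2 scale (SE 0.183, edgeR adjusted p = 6.02e-05). Plaur, the urokinase receptor gene, stood at 1.30, 1.03 and 1.49 TPM in luteolin 1, 2 and 3 and at 11.9, 15.8 and 32.5 TPM in vehicle 1, 2 and 3, and fell by 3.98 on the log2 scale. Fosl1, an AP-1 subunit gene, had 0 counts in every luteolin library and 1.04, 4.56 and 6.29 TPM in vehicle 1, 2 and 3. With 3 counts over the whole luteolin group as the floor, Fosl1 was at least 58.5-fold lower (38.9-fold without luteolin 1 or luteolin 3, and up to 80.4-fold without vehicle 1), which covers counting error only. Its counts had decimals in 3 libraries, and its level is uncertain where reads were shared. The neutrophil, macrophage and dendritic cell markers fell in the same libraries as Etv4, Plaur and Fosl1, and their part in these changes was not tested. The 3 that rose were Spry1, Spry2 and Spred2, inhibitors of the Ras-ERK pathway. Their relatives in the list did not rise. Spry4 fell (-1.32, edgeR adjusted p = 0.0276) and Spred1 did not pass (-0.15). The call of Spry4 ended without luteolin 2, without luteolin 3 or without vehicle 2. Of the 3 that rose only Spry1 passed without luteolin 3, without vehicle 1 or without vehicle 3, and Spred2 did not pass without luteolin 1 either.

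**Figure D4:**
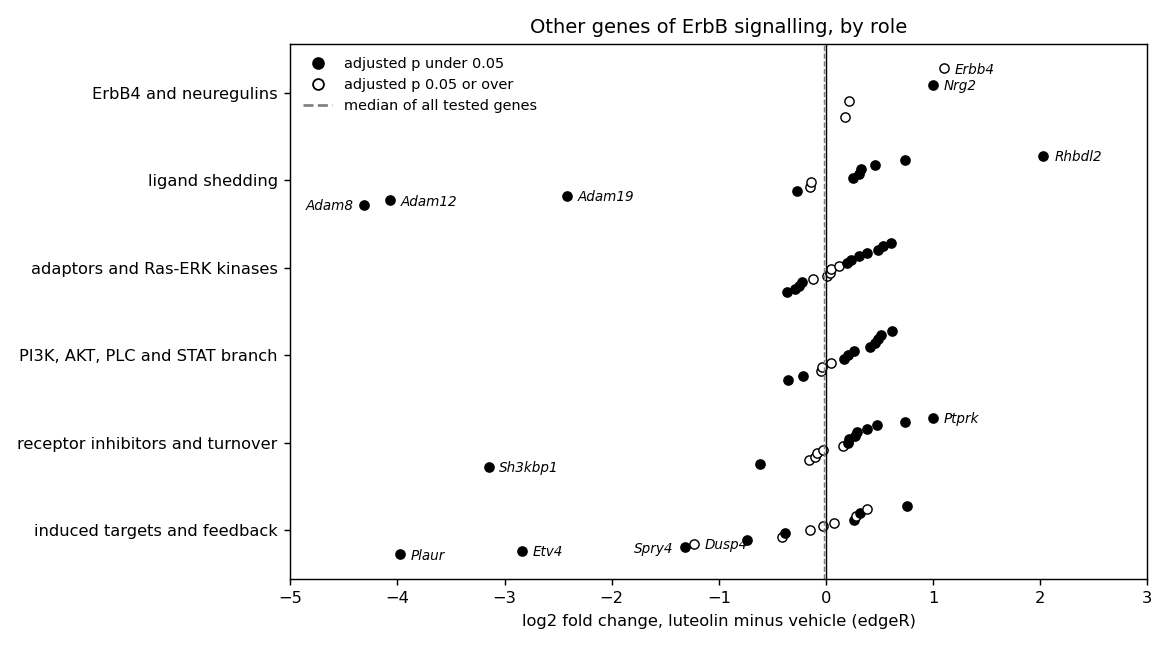
Log2 fold change, luteolin minus vehicle (horizontal axis), of the tested genes in 6 lists around ErbB signalling; filled points passed at an adjusted p of 0.05, the dashed line is the median of all tested genes, and names mark genes beyond 0.95 in either direction. Fosl1 is left out because it had 0 counts with luteolin. Most points lie near 0, and the points farthest to the left are Adam8, Adam12, Plaur, Sh3kbp1, Etv4 and Adam19.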

How the data were processed

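Whole corneas were flash frozen, RNA was extracted with Trizol and libraries were made with an Illumina TruSeq kit, per the labels' protocols. RSEM 1.2.12, Bowtie2 2.2.5 and mm9 appear in the submitters' processing notes, with no role stated. Which annotation was used, and whether strand was, is not given in the sources used here. The authors deposited, per the file headers, estimated counts, TPM values (per length, with a common total) and FPKM values (per length and depth) per library. Of the estimated counts, 10.3% to 10.8% were more than 0.001 from a whole number. Columns were matched to samples by name, and 14 further columns were not used. Libraries were grouped by title.

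Rounded estimated counts went into edgeR 4.0.16 (R 4.3.3): filterByExpr (minimum count 10, minimum total 15) kept 13838 of 17794 genes, TMM factors scaled the libraries, and luteolin was set against vehicle by the quasi-likelihood test. The SE is the log2 fold change over the square root of F. The code was tested on simulated data.

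The members and gene lists were chosen with earlier results of these data known. Named were all members, the 3 genes of smallest p in each pathway list, and the 3 genes most like the ligand and the receptor of smallest p. Adam10, Adam17, Spry1, Spry2, Spred1, Spred2 and the other genes labelled in the plot of pathway lists were chosen after their values were seen. So were the markers Krt4, Krt12, Krt13, Krt19, Kit, Clu, Itgam, Mbp, S100a9, Csf3r and Cxcr2. The result of 1 list gene is not reported here. Alternatives were DESeq2 1.42.0, relative log expression factors, upper quartile factors, library sizes only, no filter, a replicate block, leaving out each library and, for shares, FPKM and CPM.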

Additional observations from a re-analysis of the deposited data

How the results depend on the processing

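All 10 members kept their direction under every alternative fit; set against the median of the corneal epithelium markers, a comparison chosen after seeing the data, Ereg (-0.15) and Hbegf (-0.09) were below 0. The number of members called higher was between 4 and 7 and of those called lower 2 or 3 with 1 library left out, and 7 and 3 with DESeq2. In a fit with replicate block, 6 members were higher and 3 lower, since Ereg passed (log2 fold change 0.52, edgeR adjusted p = 0.0474). The labels do not say whether the numbers pair the libraries. Same-numbered libraries had correlations of deviations from their group means of -0.150, 0.0267 and 0.0121. Those of differently numbered libraries ran from -0.141 to 0.180. With 3 libraries in a group, these correlations cannot decide whether the numbers pair them. Genes called over the whole table ran from 6795 to 8493 over the alternatives, against 8157. With upper quartile factors or library sizes only, the receptor inhibitor list had 4 higher genes (8 with TMM) and the induced target list 1 (3 with TMM), as the median of all tested genes moved to -0.11 and -0.13. With 1 library left out, the higher genes ran from 1 to 2 among Erbb4 and the neuregulins, from 5 to 8 among receptor inhibitors and from 1 to 3 among induced targets, and the lower genes from 1 to 2 in the PI3K branch and from 3 to 6 among induced targets. Nrg1 ran from -0.02 without luteolin 1 to 0.30 without vehicle 3. The difference in the share of Erbb2 ran from -0.0391 to 0.529 percentage points with 1 library left out, around 0.190. With counts not divided by length, the share of Hbegf was 13.2 percentage points higher with luteolin (18.6 in TPM), and the differences were -5.23 for Areg (-10.7 in TPM), -9.91 for Epgn (-13.0 in TPM) and -7.19 for Tgfa (-2.87 in TPM). The causes of the other shifts were not tested. The low counts of Egf (55 to 108 per library) limit its precision.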
